A study of Mus musculus with 2 samples.

Results

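Antisense long noncoding genes lie on the DNA strand opposite another gene, and 209 of them were counted well in the nucleoplasm of Lipid A-stimulated mouse macrophages. They were chosen by annotated transcript type, which had to be antisense for every transcript, and selected on their expected count, which had to be 50 or more in both libraries. They are 209 of 2948 genes with only antisense transcripts (7.09%), and of 55536 annotated genes in all. Another 1478 of the 2948 were listed at 0 counts in both libraries. The label long noncoding is the annotation's: Trmt61b, for example, is typed as antisense despite the name of a coding gene.

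The libraries were ribosomal RNA-depleted total RNA of bone marrow-derived macrophages of strain C57BL/6J, a primary cell type, given 100 ng/ml Lipid A for 120 min. Lipid A is the membrane anchor of bacterial lipopolysaccharide and acts through the receptor Tlr4. Both libraries belong to 1 group, nucleoplasmic RNA of stimulated cells, and are biological replicates 1 and 2 made from 1 µg and 500 ng of RNA, so input and replicate cannot be told apart. The labels name the same donor entry for both, leave age and sex as not collected, and give the fraction in 1 field only as nucleus. No untreated cells, other time or other fraction were analysed here, so levels below do not show induction, and no groups could be tested against each other. The gene tables held 14374739 and 16372797 expected counts, of which annotated genes held 14171635 and 16332668. All 8 macrophage markers, among them Adgre1 and Csf1r, were at 1 TPM or more in both libraries and summed to 938 TPM in replicate 1 and 2004 TPM in replicate 2. The highest single marker made up much of these sums, at 403 and 1316 TPM, and the median over the 8 was 75.2 and 113 TPM. TPM is transcript abundance per effective length, scaled to the same total in every library. The 5 stromal collagen and matrix markers summed to 59.3 TPM in replicate 1 and 0.150 TPM in replicate 2, while T cell, B cell and neutrophil markers summed to at most 1.44 TPM in either, with 2 of 3 T cell markers at 0 in both. In RNA from a bulk culture, fewer cells of a type and less RNA per cell cannot be told apart.

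Antisense transcription is common in mammalian genomes and often starts inside, or back to back with, a protein-coding gene. Some antisense RNAs act in cis on their neighbours, as Airn and Kcnq1ot1 do in imprinted domains, whereas for most no function is established. Many stay in the nucleus, where unspliced precursors of the coding gene are present too. Whether counting used strand is not given in the sources used here, and this decides what a count on an antisense gene can mean.

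The counts themselves bear on strand. Reads divided between entries leave counts that are not whole. The deposited counts have 2 decimals, and whole here means no fraction at all, a tolerance of 0. Of the 75 antisense genes whose exons touch no exon of a protein-coding gene, 71 had whole counts in both libraries. Of the 134 whose exons do touch one, 31 had whole counts, although for all but 1 of the 134 every such coding exon lies on the other strand. A further comparison used single-exon processed pseudogenes lying within introns of 1 protein-coding gene at a mean of 20 TPM or more. Those on the strand of the coding gene stood at a median of 10.7% of its TPM (n = 98), and those on the other strand at 11.5% (n = 182). Their quartiles ran from 2.50 to 23.2% and from 4.95 to 20.4%. Processed pseudogenes are copies of other genes. Reads of those genes counted on them were not separated, so this comparison does not decide whether strand was used. Antisense genes lying wholly in such introns stood at a median of 7.65% of the host gene (n = 114), and the 40 of them that met the count minimum at 22.8%. The second value is raised by the choice on counts. Use of strand thus stays unknown. For an antisense gene inside a well-expressed gene, its own RNA and intronic RNA of that gene therefore cannot be told apart here.

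The share of antisense genes that met the count minimum followed the level of the sense partner. The partner is the gene named by the symbol (suffix os or as) or, failing that, the protein-coding gene on the other strand with the longest overlap or a start within 1000 bases, back to back. Of antisense genes whose partner stood at a mean of 0.1 TPM or less, 7 of 951 met the minimum (0.736%, 95% Wilson interval 0.357 to 1.51%). The share was 0.798% for partners from 0.1 to 1 TPM, 5.32% from 1 to 10 TPM and 17.4% from 10 to 50 TPM. It reached 73 of 203 for partners over 50 TPM (36.0%, 29.7 to 42.8%). The intervals treat each antisense gene as independent, although some share a partner, so they are given as a description. The same order held for genes whose exons overlap coding exons (5.30%, 17.0% and 38.0% in the upper 3 classes) and for those that share only the gene body (5.94%, 20.0% and 32.4%).

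**Figure D1:**
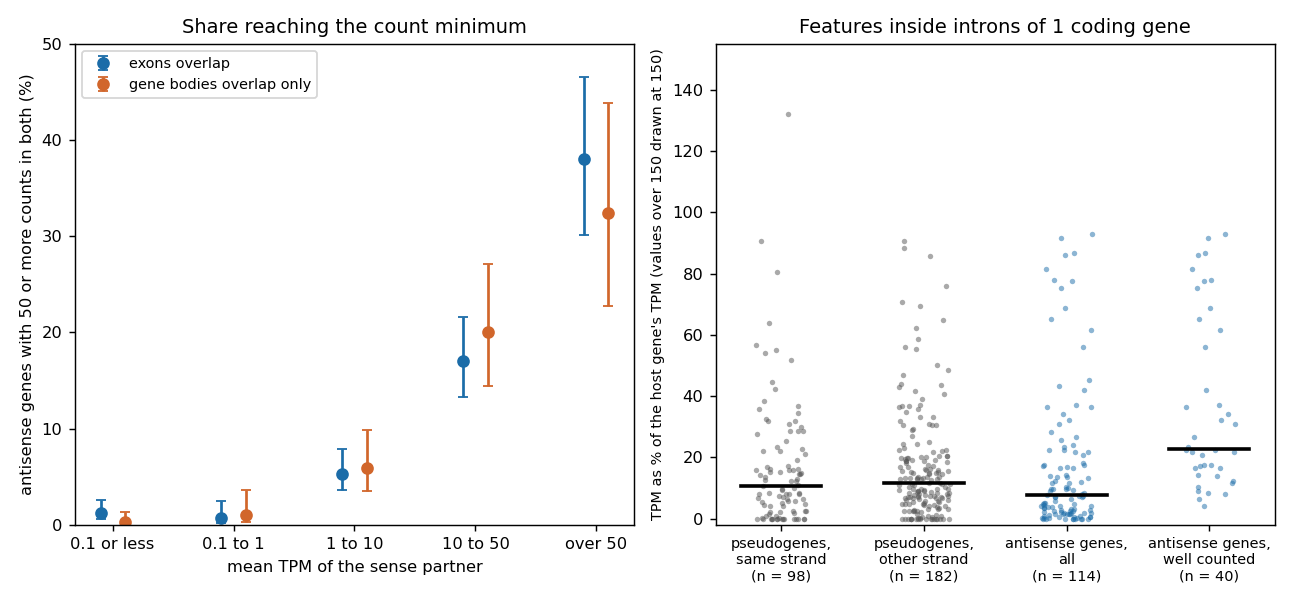
Left, share of antisense genes with 50 or more counts in both libraries (%, with 95% Wilson intervals) against the mean TPM of the sense partner, by whether exons or only gene bodies overlap. Right, TPM of features inside introns of 1 coding gene as a percentage of that gene's TPM, with points for features and bars for medians: 10.7% and 11.5% for pseudogenes on the same and the other strand, 7.65% for antisense genes and 22.8% for those well counted.

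The 209 genes together held 99928 counts in replicate 1 (0.705% of counts of annotated genes, Wilson interval 0.701 to 0.709%) and 78848 in replicate 2 (0.483%, 0.479 to 0.486%). Their median was 9.23 TPM in replicate 1 and 4.72 TPM in replicate 2, with ranges from 0.740 to 365 TPM and from 0.490 to 244 TPM. Over both libraries their median of mean TPM was 6.87, close to the 6.60 of 144 lincRNA genes and below the 10.5 of 8140 nuclear-encoded protein-coding genes at the same minimum. A few genes carried much of the sum. The 5 with the most counts held 37.5% and 40.1% of the 209 genes' counts, and 46 genes reached 10 TPM in both libraries. In length their exons summed to a median of 2329 bases, and 27 had 1 exon, 88 had 2 and 94 had 3 or more.

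AC119228.1 (chr19:29373417-29384471, minus strand, mm10) was the highest of all by TPM and by counts. It lies within Cd274, which encodes the checkpoint ligand PD-L1, and 10.8% of its exon bases fall in exons of Cd274. It had 365 TPM in replicate 1 and 244 TPM in replicate 2 (304 ± 85.0 TPM, SD, n = 2, here and below), from 18982 and 20406 counts. Cd274 itself stood at 513 and 560.3 TPM, so the antisense gene was below its partner in both libraries. The read-based tables, a second quantification that the authors made from the read files, gave AC119228.1 237 and 179 TPM. Its leading transcript took 86.2% and 92.0% of the gene's TPM and has 2 exons, the larger of which covers introns of Cd274 and 2 of its exons in the map of loci.

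4933423P22Rik (chr2:90479236-90488425, plus strand) came next at 187 and 73.5 TPM (130.3 ± 80.3 TPM), from 7947 and 4453 counts. It lies between the first and the second exon of Ptprj, a receptor-type tyrosine phosphatase gene, and shares no exon base with it. Ptprj stood at 188 and 115 TPM, so the pair was level in replicate 1 and Ptprj was higher in replicate 2. By mean TPM the intronic gene stood at 86.0% of its host, against a 95th percentile of 55.9% among the pseudogenes on the other strand described above. Another 10 of the 40 intronic antisense genes were over that percentile, among them Gm16161 within Mtmr14, a phosphoinositide phosphatase gene, and Gm12000 within Ikzf1, which encodes the lymphoid transcription factor Ikaros. These 40 had been chosen for high counts and the pseudogenes had not, which favours the 40 in this comparison. The count over the percentile is therefore only a description. Among the 40 themselves the 95th percentile was 86.8%, so 4933423P22Rik was not above it.

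Gm16094 (chr1:85599286-85599839, plus strand) followed at 161 and 81.9 TPM (122 ± 56.1 TPM). It starts 469 bases from the start of Sp110, an interferon-induced gene of the nuclear body protein family, does not overlap it, and overlaps no other coding gene of the other strand. Brip1os, described below, is likewise back to back with its named partner but overlaps a further coding gene. Sp110 stood at 287 and 174 TPM. Its 480.0 and 367 counts put Gm16094 40th by counts, over an effective length of 212 and 211 bases. The read-based tables gave it 1827 and 2325 counts, or 322 and 199.5 TPM. The Sp100, Sp110 and Sp140 genes are related and lie near each other on chromosome 1, and whether reads were split among them or their copies was not tested. The values of Gm16094, A530040E14Rik (54.7 and 34.6 TPM, or 95.8 and 66.0 TPM read-based) and the Sp140 antisense genes Gm10552 and Gm17017 are therefore uncertain.

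The exon junctions of the leading transcripts show what a read from spliced antisense RNA would carry, as opposed to one from an intron of the partner. Each line gives the last 30 bases of an exon in lower case and the first 30 of the next in capitals, 5′ to 3′ on the antisense strand, from the M21 transcript sequences in mm10. The flanks of 4933423P22Rik, Gm16094 and Gm37787 lie outside exons of the partner, whereas 6 bases of AC119228.1 and 30 bases of Gm28913 lie in exons of Cd274 and Ikbke. The deposited tables give no counts per junction.
AC119228.1 (chr19:29382581-29384393, minus strand, intron of 1753 bases): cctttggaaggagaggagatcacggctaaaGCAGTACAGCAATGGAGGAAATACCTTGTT
4933423P22Rik (chr2:90479243-90479628, plus strand, intron of 326 bases): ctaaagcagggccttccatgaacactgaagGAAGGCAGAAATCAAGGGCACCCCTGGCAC
Gm16094 (chr1:85599513-85599699, plus strand, intron of 127 bases): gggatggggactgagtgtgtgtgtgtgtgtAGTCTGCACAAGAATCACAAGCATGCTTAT
Gm28913 (chr1:131263365-131266480, plus strand, intron of 3056 bases): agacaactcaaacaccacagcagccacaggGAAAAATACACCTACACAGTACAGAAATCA
Gm37787 (chr1:171635080-171635698, plus strand, intron of 559 bases): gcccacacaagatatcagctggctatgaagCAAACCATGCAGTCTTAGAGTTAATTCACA

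**Figure D2:**
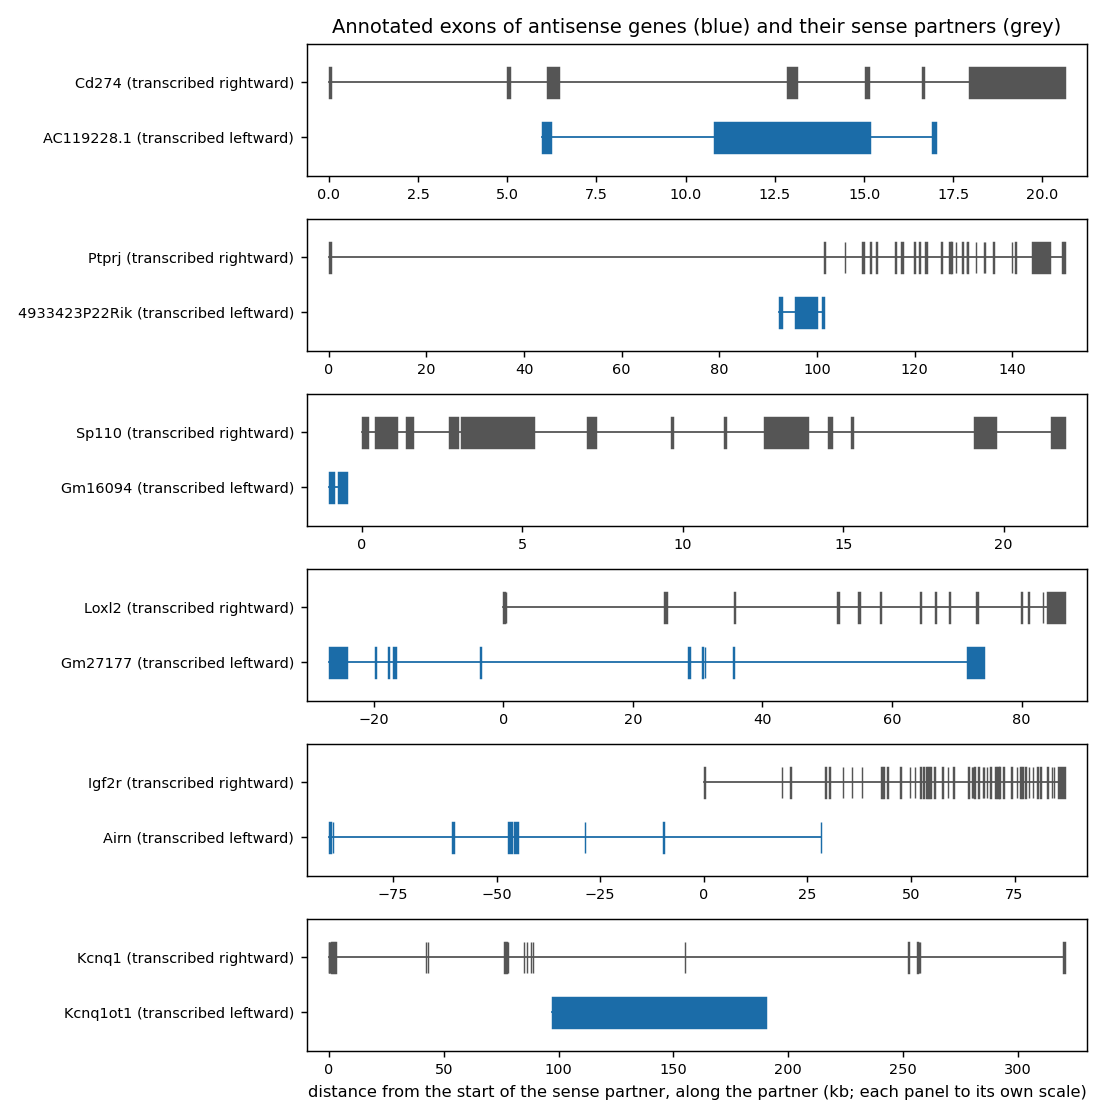
Annotated exons (boxes) of 6 antisense genes in blue and their sense partners in grey, against distance from the partner's start along the partner (kb, a separate scale in each panel). 4933423P22Rik lies inside the long first intron of Ptprj, Gm16094 lies 469 bases before the start of Sp110, and Kcnq1ot1 is a single unspliced exon of 93092 bases inside Kcnq1.

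Further genes among the 15 highest had partners of varied function. Gm37787 stood at 79.6 and 46.1 TPM opposite Slamf7, a receptor of the SLAM family on immune cells, which stood at 368 and 283 TPM. It has 72.3% of its exon bases in Slamf7 exons, where reads of both genes would fall together if counting ignored strand. Gm16712 (chr17:55954771-55959381, minus strand) stood at 80.2 and 53.2 TPM and was above its partner Ebi3, a subunit shared by interleukins 27 and 35, at 61.3 and 39.3 TPM. It was the highest of the genes that exceeded their partner in both libraries. Gm13556 (129 and 49.0 TPM) lies opposite Dennd1a, an endocytosis regulator, and Gm29083 (60.2 and 39.8 TPM) within Nrp2, a co-receptor for semaphorins. Gm15726 (70.5 and 21.3 TPM) lies within Mid1, a ubiquitin ligase gene at 94.1 and 29.3 TPM. Both genes of that pair were lower in replicate 2 than in replicate 1. The read-based tables put Gm15726 at 124 and 49.9 TPM.

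Short exons weigh on this order. Gm16161 ranked ninth by TPM (67.2 and 45.0 TPM) from only 80.0 and 78.0 counts over 290 exon bases, and the read-based tables gave it 249 and 72.2 TPM. Gm26716 stood at 32.2 and 62.2 TPM and was the only gene of the 15 higher in replicate 2. All its exon bases lie in exons of Sdc3, a syndecan gene, and the read-based tables gave it 9.87 TPM in replicate 2 and next to none in replicate 1. Gm17139, the other gene whose exons lie wholly in sense exons (those of Arel1), had 101 and 73.9 counts in the gene tables and 0 in both read-based tables. For these 2 genes the values differed between the tables and are uncertain. The cause was not tested.

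**Figure D3:**
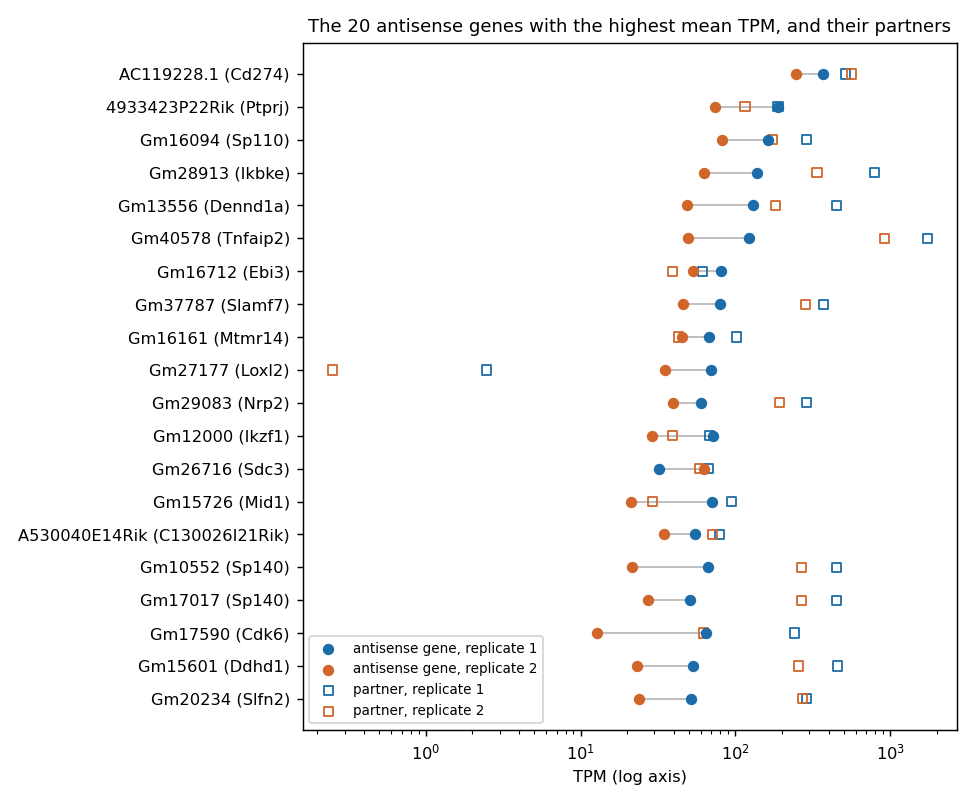
TPM (log axis) of the 20 antisense genes with the highest mean in replicates 1 (blue) and 2 (orange) as filled points, and of their sense partners as open squares. Loxl2, the partner of Gm27177, is far below it at 2.48 and 0.250 TPM, whereas most partners lie to the right of the antisense gene.

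Of 168 genes in 6 lists, 4 had a well-counted antisense gene. The lists covered interferon and NF-kappa B responses, cytokines, early feedback, Tlr4 signalling and macrophage identity. Of the 168 genes, 19 had any antisense-type partner, and the 4 are among those 19. Over the whole annotation 2448 genes were the sense partner of an antisense-type gene, and 191 of them had a well-counted one (7.80%). The 4 were Ikbke and Tnfaip2 among signalling genes, Pim1 among early feedback genes and Il1b among cytokines. None was among the 34 interferon response or 21 macrophage identity genes. Only 2 genes in each of those lists had any antisense-type partner. Sp110, the interferon-induced gene beside Gm16094, is in none of the lists. Ikbke, Tnfaip2, Pim1 and Il1b all stood over 50 TPM in both libraries. At that partner level 36.0% of antisense genes met the minimum, so the 7.80% is not matched for level. Mertk, Oasl1, Dhx58 and Irak2 stood over 50 TPM in both too, but their antisense genes missed the minimum. The counts are a description with no test, since the lists were drawn up with results of these data known.

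Ikbke, the kinase that phosphorylates interferon regulatory factors, has 2 such genes on its other strand. Gm28913 (chr1:131263330-131266749) stood at 137 and 62.6 TPM from 291 and 199 counts, and Gm28914 at 37.1 and 16.1 TPM. Ikbke stood at 785 and 336 TPM, above both in each library. The read-based tables put Gm28913 at 318 and 172 TPM and Ikbke at 901 and 384 TPM. Tnfaip2, a gene induced by tumour necrosis factor, stood at 1739 and 913 TPM against 122 and 49.3 TPM for Gm40578, which shares 29.4% of its exon bases with Tnfaip2 exons.

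Il1bos, antisense to the pro-inflammatory cytokine gene Il1b, stood at 4.31 and 2.52 TPM from 108 and 105 counts, where Il1b stood at 162 and 121 TPM. The read-based tables put Il1bos at 7.63 and 3.67 TPM. Gm26885, opposite the survival kinase gene Pim1, differed most within this group: it had 409.6 counts in replicate 1 and 81.0 in replicate 2 (9.22 and 1.22 TPM), while Pim1 stood at 242 and 144 TPM. The read-based tables put Gm26885 higher, at 25.5 and 7.72 TPM. Dhx58os, opposite the RNA sensor gene Dhx58, missed the minimum with 102 and 32.1 counts. Gm14011 within the phagocytic receptor gene Mertk (19 and 18 counts) and Gm16174 within Bcl3 (39 and 10 counts) missed it too.

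The symbol names the sense partner in 13 of the 209 genes, and all 13 partners lie on the other strand. The gene bodies overlap in 12 of these pairs, Brip1os being the exception. Brip1os was the most counted of these, with 697 and 759 counts (13.4 and 9.40 TPM), and stood above Brip1, a DNA repair helicase gene, at 3.02 and 1.54 TPM. It is placed back to back with Brip1, with starts 177 bases apart, and runs on into the region of Med13, a Mediator subunit gene at 38.0 and 25.3 TPM. Mypopos (5.50 and 4.72 TPM) was likewise above Mypop (1.52 and 0.900 TPM) in both libraries, and the read-based tables put it at 11.7 and 7.22 TPM.

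The other 11 were below their partners in both. Adap2os was the highest at 21.6 and 7.36 TPM (14.5 ± 10 TPM), against 167 and 72.5 TPM for Adap2, a GTPase regulator gene. The read-based tables gave Adap2os 52.3 and 31.2 TPM, and its relative log2 ratio between the libraries, -0.86 in the gene tables, was -0.12 there. Rab10os stood at 13.4 and 7.96 TPM opposite the membrane traffic gene Rab10 (33.3 and 29.2 TPM). Atxn7l1 has a pair of named antisense genes: Atxn7l1os1 stood at 14.4 and 4.27 TPM and Atxn7l1os2 at 5.09 and 1.68 TPM. Uckl1os, Phtf1os, Aknaos, Ube4bos1, Bcas3os1 and Zmiz1os1 had means from 2.92 to 6.24 TPM in the gene tables, and Bcas3os1 moved most in the read-based tables, from 4.95 and 1.29 TPM to 13.9 and 6.16 TPM. Of the 13, Phtf1os has a single exon and starts 471 bases from Phtf1.

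A sense partner was found for 203 of the 209 genes, 191 partners in all, and 10 partners were shared. Arhgap10, a GTPase-activating protein gene, was the partner of 4 (Gm45406, Gm45285, 4933421D24Rik and 0610038B21Rik), which are therefore not independent. The median difference on the log2(mean TPM + 1) scale, antisense gene minus partner, was -1.79 (-1.81 in replicate 1 and -1.93 in replicate 2), with quartiles at -2.61 and -0.69. It was -2.06 for the 133 genes whose exons overlap coding exons on the other strand and -1.23 for the 69 that share only the gene body. In both libraries 166 genes were below their partner and 24 above it, and 13 changed place between libraries. Across the 203 pairs the levels had a Spearman correlation of 0.53, given as a description: the pairs share libraries, and overlapping pairs may share reads.

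**Figure D4:**
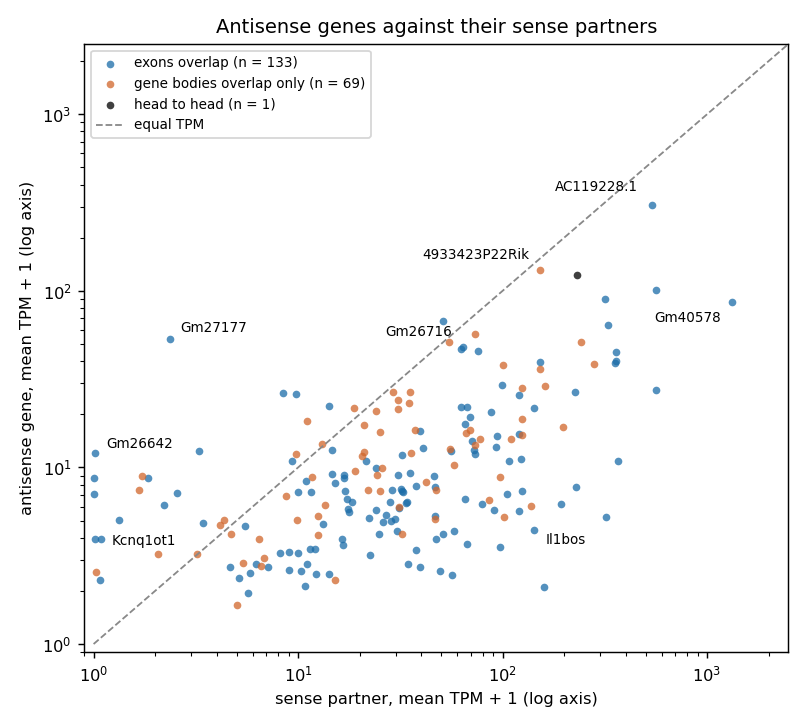
Mean TPM + 1 of 203 antisense genes against that of their sense partners (log axes), coloured by position, with a dashed line at equal TPM. Most points lie below the line, at a median log2 difference of -1.79, and Gm27177, Gm26642 and Kcnq1ot1 are labelled among those above it.

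Genes above a partner of low TPM differed in their other neighbours. Gm27177 (chr14:69582164-69683286, minus strand) was the highest of them at 69.3 and 35.0 TPM from 2226 and 1759.5 counts. Its partner Loxl2, a collagen cross-linking enzyme gene, stood at 2.48 and 0.250 TPM. In the read-based tables Loxl2 was higher, at 13.2 and 6.95 TPM, and Gm27177 at 73.1 and 35.6 TPM was still above it. The highest coding gene that it overlaps at all, Entpd4b, stood at 3.58 and 2.04 TPM, so in the gene tables Gm27177 was over every coding gene it overlaps on either strand. The stromal markers summed to 59.3 and 0.150 TPM in the same libraries, and any relation of Gm27177 to them was not tested.

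By contrast, Gm26642 (14.2 and 7.84 TPM) has Elf3, at 0 and 0.0300 TPM, as its longest overlap but also overlaps Rnpep, an aminopeptidase gene at 179 and 104 TPM. Gm47079 (8.93 and 3.25 TPM) is opposite Icam4, listed at 0 in both, and also overlaps Icam1, the adhesion molecule gene, at 605 and 427 TPM. Etohd2 (10.2 and 5.30 TPM) overlaps Tut7 at 167 and 97.8 TPM. A930007I19Rik, opposite Pdcd1lg2 (the PD-L2 gene), overlaps Ric1 at 107 and 69.4 TPM. The part of these neighbours in the 4 values was not tested. Of the 24 genes above their partner in both libraries, 18 were above every coding gene they overlap and 6 were not.

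Other genes among the 18 are given with their partners. B930036N10Rik stood at 11.2 and 4.25 TPM against 1.23 and 0.460 TPM for Alyref2, a paralogue of an RNA export factor gene. 4930512H18Rik stood at 7.69 and 8.12 TPM within Palld, an actin-bundling protein gene at 1.19 and 0.260 TPM. Gm30329 (7.47 and 5.37 TPM), Gm4673 (4.84 and 3.21 TPM, opposite the lipoprotein receptor gene Lsr) and 9530082P21Rik (3.34 and 2.52 TPM) completed the 10 largest differences with those above. Tug1, a widely expressed noncoding RNA, stood at 26.7 and 23.3 TPM against 11.7 and 5.71 TPM for Morc2a, whose start lies 482 bases away.

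Of 30 antisense and imprinting-related noncoding RNAs known from the literature, 29 were in the tables, 15 were of antisense type only and 2 met the minimum. Kcnq1ot1, which silences genes of the Kcnq1 imprinted domain from the paternal chromosome, had 5529.6 and 3118 counts, the third most of the 209. Its exon of 93092 bases made this only 4.23 and 1.58 TPM. Kcnq1 had 1.01 and 7 counts, and the source of the counts on Kcnq1ot1 was not tested.

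Airn, which silences Igf2r in cis on the paternal chromosome, had 200 and 78 counts (16.7 and 4.51 TPM). Igf2r, the cation-independent mannose 6-phosphate receptor gene, had 1835 and 4146 counts (16.3 and 22.6 TPM). In the gene tables, relative to the median gene, the log2 ratio of replicate 2 over replicate 1 was -1.11 for Airn and 1.02 for Igf2r. The read-based tables gave Airn 63.3 and 26 TPM and Igf2r 47.0 and 18.2 TPM, relative ratios of -0.65 and -0.72, so the opposite directions were in the gene tables alone. The cause of this difference between the tables was not tested. Among those that missed, Dnmt3aos had 67.0 and 43.0 counts, Tsix 7.40 and 1.53, and 6 of the 15 were listed at 0 in both. Zeb2os (429 and 399 counts) and Zfas1 (1861 and 1232 counts) have transcripts of another type as well and so were not among the 209.

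Promoter windows of RefSeq (build GRCm38.p6, 250 bases before to 50 after a start) matched 75 of the 209 genes by symbol, and for 38 the start lay within 50 bases of that in M21. Letters of 5 motifs were searched on both strands. GAAANNGAA, the core of the interferon-stimulated response element, occurred in 2 of the 38 windows (5.26%) against 8.56% of all 32851 windows. TGANTCA, the AP-1 site, occurred in 1 (2.63%, against 7.81%), the kappa B consensus in 1 (2.63%, against 4.51%) and TATAAA in 3 (7.89%, against 13.6%). GAGGAA, the core bound by PU.1 and other ETS factors, occurred in 15 (39.5%, against 28.3%). The median GC content was 50.7% in the 38 and 52.7% in all. These shares are descriptions over few windows.

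The windows of Airn and Kcnq1ot1 are shown as those of both known imprinted RNAs. The window of F630028O10Rik is shown as that of the gene with an ISRE core that overlaps no coding gene on either strand. Capitals mark GAGGAA or its complement in each window, TATAAA on the lower strand of Airn, and in F630028O10Rik the ISRE core, which overlaps a GAGGAA match by its complement.
Airn (chr17:12741061-12741360, plus strand): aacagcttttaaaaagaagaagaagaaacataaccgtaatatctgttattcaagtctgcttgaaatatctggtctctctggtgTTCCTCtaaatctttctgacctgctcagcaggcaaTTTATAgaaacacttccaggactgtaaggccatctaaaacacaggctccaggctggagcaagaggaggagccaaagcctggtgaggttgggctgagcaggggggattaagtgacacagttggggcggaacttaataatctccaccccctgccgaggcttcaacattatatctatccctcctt
Kcnq1ot1 (chr7:143296498-143296797, minus strand): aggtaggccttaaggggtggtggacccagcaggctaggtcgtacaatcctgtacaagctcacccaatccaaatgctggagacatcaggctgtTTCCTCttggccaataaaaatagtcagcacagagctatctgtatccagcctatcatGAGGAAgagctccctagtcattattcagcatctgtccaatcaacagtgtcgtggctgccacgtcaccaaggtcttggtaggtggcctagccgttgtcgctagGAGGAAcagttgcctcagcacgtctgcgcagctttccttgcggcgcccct
F630028O10Rik (chrX:96239676-96239975, plus strand): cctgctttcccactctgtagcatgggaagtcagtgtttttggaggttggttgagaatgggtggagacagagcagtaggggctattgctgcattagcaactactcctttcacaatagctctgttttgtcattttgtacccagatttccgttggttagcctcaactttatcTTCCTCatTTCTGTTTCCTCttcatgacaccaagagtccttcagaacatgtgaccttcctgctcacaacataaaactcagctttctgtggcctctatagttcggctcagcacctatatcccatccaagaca
The Airn window held 1 GAGGAA match, the Kcnq1ot1 window 3 and the F630028O10Rik window 2. F630028O10Rik, an X-linked gene with no sense partner, had 862 and 817 counts (22.6 and 14.2 TPM). It was the highest of 6 genes for which no partner was found, the others being Gm15445, D730005E14Rik, Gm15859, 4930430E12Rik and Gm26947.

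By position, 133 of the 209 overlap coding exons of the other strand (63.6%), 69 share only a gene body (33.0%), 1 is back to back without overlapping any of them and 6 have no coding gene overlapping or back to back on the other strand. Among the 2739 antisense-type genes under the minimum these shares were 55.9%, 36.0%, 2.85% and 5.22%. Of antisense-type genes with exon overlap 7.99% met the minimum and of those with body overlap only 6.54%. In the exon class the part of exon bases in partner exons had a median of 13.8%, and 9 genes had 50% or more. The antisense gene started within 1000 bases of its partner's start in 18 cases, closest for 1600020E01Rik at 74 bases from Pcbp1, an RNA-binding protein gene. 1600020E01Rik stood at 26.9 and 15.5 TPM and Pcbp1 at 13.6 and 12.7 TPM.

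Between the libraries, TPM of the antisense genes was lower in replicate 2 more often than TPM of other genes. All genes with 50 or more counts in both shifted by a median log2 TPM ratio of -0.57, and ratios are therefore given relative to that median, on the log2(TPM + 1) scale, replicate 2 over replicate 1. The 209 genes had a median of -0.30 (quartiles -0.65 and 0.03) and 151 of them were below 0. The median was 0.00 over all 9502 genes by construction, -0.06 over 144 lincRNA genes and 0.04 over 8140 protein-coding genes. By 2-fold or more, 15 antisense genes were lower in replicate 2 (7.18%), against 1.66% of all 9502 genes and 5.56% of lincRNA genes. By the same margin 1 was higher (0.478%), against 3.99% of all genes. With 1 group of 2 libraries the difference is between these libraries and carries no test, and RNA input moved with it. The summed stromal markers (59.3 and 0.150 TPM) and macrophage markers (938 and 2004 TPM, with medians of 75.2 and 113 TPM) also differed between the libraries. Their part in it was not tested.

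The sense partners shared part of this shift. Their median relative ratio was -0.18 over 174 partners with 50 or more counts in both. Over the 186 pairs with such a partner the ratio of the antisense gene was the lower in 117, by a median log2 of -0.16. Across these pairs both ratios had a Pearson correlation of 0.45 and a Spearman correlation of 0.45 (0.50 and 0.49 with exon overlap, n = 121, and 0.35 and 0.39 with body overlap only, n = 64). These are descriptions, since the pairs share the same libraries and, where they overlap, may share reads.

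**Figure D5:**
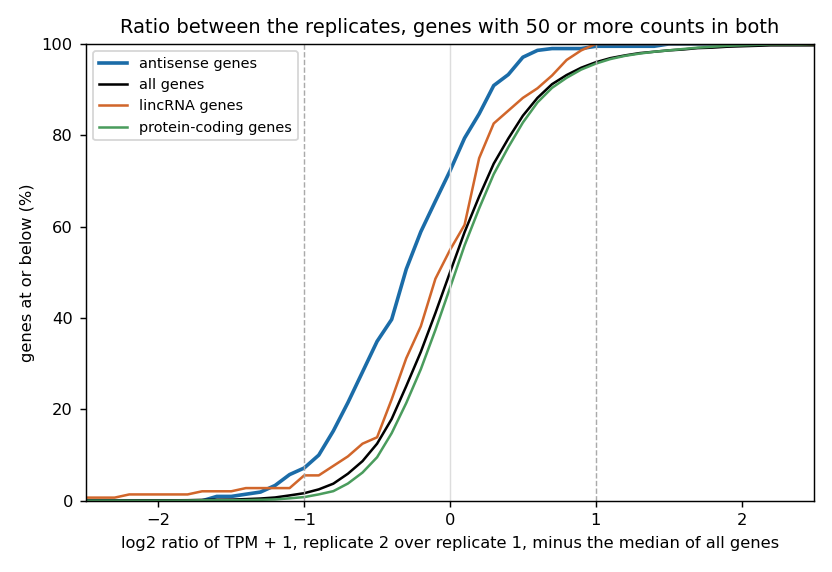
Cumulative share of genes (%) against the log2 ratio of TPM + 1, replicate 2 over replicate 1, minus the median of all genes, for genes with 50 or more counts in both libraries. The antisense genes (blue, median -0.30) lie to the left of all genes, lincRNA genes (median -0.06) and protein-coding genes (median 0.04), and dashed lines mark 2-fold.

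Gm17590, within the cell cycle kinase gene Cdk6, had the lowest relative log2 ratio with a pseudocount of 1 TPM, -1.66, at 64.2 and 12.8 TPM from 917 and 277 counts. Cdk6 was itself lower there (241 and 62.2 TPM, -1.37). Gm26885 opposite Pim1 came next at -1.63, where Pim1 had -0.17. The order of these genes differed between settings: with edgeR TMM scaling Gm26885 was at -2.26 and Gm17590 at -1.65, and with DESeq2 size factors at -2.29 and -1.68. In the read-based tables Gm45285 was at -1.51, Gm17590 at -1.21 and Gm26885 at -0.99. Gm45285 within Arhgap10 (29.1 and 6.28 TPM, -1.48), Gm16144 opposite the annexin gene Anxa2 (31.2 and 7.72 TPM, -1.31) and Gm45515 opposite Swap70, a guanine exchange factor gene (32.9 and 8.30 TPM, -1.29), followed.

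In the other direction Gm26716 (1.50) was the uncertain gene within Sdc3 exons. It was followed by 4930430E12Rik, which has no partner, at 10.8 and 13.9 TPM (0.91), and 4930512H18Rik at 0.64. Gt(ROSA)26Sor, the noncoding gene of the Rosa26 locus used for transgenes, stood at 7.24 and 7.16 TPM (0.56), level in TPM but above the shift of other genes. Gm12195 within Tbc1d9b stood at 15.4 and 14.9 TPM (0.52).

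At the count minimum, Gm26873 (52 and 50 counts), AC129188.1 (103 and 50) and Aknaos (108 and 50) lay just inside. 1700019L13Rik (250.5 and 49.0), opposite the fractalkine receptor gene Cx3cr1, AC125075.1 (89.0 and 49.0) and Gm17529 (49.2 and 49.0) lay just outside. In all 6 the lower count was in replicate 2.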

How the data were processed

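Ribosomal RNA-depleted RNA of the nucleoplasmic fraction of Lipid A-stimulated mouse macrophages was measured in 2 libraries of 1 group. The authors deposited expected counts, estimated per gene or transcript from a transcriptome alignment to mm10 with annotation M21, per the notes accompanying the files. The deposited TPM and FPKM values, per the file headers, are scaled by effective length; FPKM served only as an alternative. A further set of estimated counts and TPM per transcript, called read-based, was made from the read files, per the same notes. Which aligner and quantifier were used, in which version, and whether with strand, is not given in the sources used here. Nothing shows that the cultures came from separate animals, so spread may be technical.

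Members follow the transcript types and the minimum of 50 counts. Partners and positions were computed from the M21 annotation, and ratios as log2(TPM + 1) minus the median over all genes at that minimum. Expected counts were rounded for edgeR 4.0.16 and DESeq2 1.42.0 (R 4.3.3), which gave only scaling factors. Python 3.11.15, pandas 2.3.3 and scipy 1.17.1 did the rest. The overlap, ratio and scaling steps were tested on simulated data. A chi-square statistic of 24.6 per degree of freedom over the members showed that the count columns are not 1 library deposited under 2 names. Shares carry 95% Wilson intervals, which treat counts or genes as independent and do not cover spread between libraries. A count of 3, taken as the limit that a count of 0 allows, is 0.213 and 0.141 TPM for an effective length of 1000 bases.

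The genes and lists were chosen with earlier results of these data known. Named genes are the 15 highest by mean TPM, the 5 largest ratios each way, those whose partner is in a list or in the symbol, the 3 on either side of the minimum and the 10 furthest above a partner. Other genes, such as Airn, Kcnq1ot1, Tug1 and F630028O10Rik, and the pseudogene comparison were chosen after their values were seen. No paired analysis was possible because the 2 libraries form a single group.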

Additional observations from a re-analysis of the deposited data

How the results depend on the processing

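No paired analysis was possible because the 2 libraries form a single group. The number of well-counted antisense genes, 209, was 377 at a minimum of 20 counts, 123 at 100 and 721 in the read-based tables, and 221 to 289 with either library alone. Genes with exon overlap, 133, numbered 248 and 82 at minimums of 20 and 100. The median relative log2 ratio, -0.30, was -0.41 with DESeq2 size factors, -0.18 in the read-based tables and -0.41 over genes without exon overlap, and kept its sign in all 9 alternatives. The number lower in replicate 2 by 2-fold was 15 (all genes: 1.66%). It was 23 with edgeR TMM scaling (all genes: 2.08%) and with a pseudocount of 0.1 (2.47%). With DESeq2 size factors (2.35%) and with no pseudocount (2.68%) it was 25. It was 5 in the read-based tables, where 1.27% of all genes were lower. The share of all genes thus rose too in the settings with 23 or 25. Against 1 higher (all genes: 3.99%), 2 were higher under TMM (all genes: 5.96%), DESeq2 (5.53%), a pseudocount of 0.1 (5.61%) and none (5.86%).

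The median log2 difference from the partner, -1.79, was -1.93 and -1.81 with 1 library each, -2.07 with partners by exon overlap, -1.97 with a pseudocount of 0.1 and -1.21 without exon overlap. Genes above their partner by mean TPM, 29, numbered 14 with partners by exon overlap, 11 without any coding exon on either strand, and 29 to 32 with 1 library. Of the 10 highest genes, 5 stayed when ranked by counts, 6 by read-based TPM, and 8 to 9 with 1 library. The cause of these shifts was not tested. Depth limits the genes near 50 counts most, and the unknown use of strand limits all genes inside an expressed gene.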
